A study of Mus musculus with 96 samples.

Results

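Chromatin accessibility near 5 genes of the insulin-like growth factor (IGF) binding system was followed through a fast in mouse liver: Igfbp1, Igfbp2, Igfbp3 and Igfbp4, which encode IGF binding proteins, and Pappa2, which encodes an IGF binding protein protease. Peaks were taken from both deposited ATAC-seq tables where the nearest annotated gene was 1 of these 5 and the peak lay within 100 kb of its transcription start site (TSS). This gave 24 of 77002 listed peaks, 22 of 46832 in hepatocyte nuclei and 2 of 30170 in macrophage nuclei. In hepatocytes 8 peaks belonged to Igfbp2, 9 to Igfbp4, 4 to Igfbp1 and 1 to Pappa2, and 0 to Igfbp3. Both macrophage peaks belonged to Igfbp4.

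IGF1 is secreted mainly by hepatocytes and circulates bound to IGF binding proteins, which lengthen its life in blood and limit its access to receptors. IGFBP1 is made by the liver under the control of insulin, and its gene is a textbook target of FOXO1, a transcription factor that insulin keeps out of the nucleus. PAPPA2 cleaves binding proteins and so releases IGF. A peak is named here for the gene of the nearest TSS, which does not show that it regulates that gene.

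ATAC-seq counts fragments cut by a transposase where DNA is accessible. Tagged nuclei of hepatocytes were captured from HEP-INTACT mice, and those of macrophages from MAC-INTACT mice, on beads from the livers of females. The mice were either fasted from ZT12, the start of their active phase, or fed ad libitum, and were taken after 3, 8, 16 or 24 h, that is at ZT15, ZT20, ZT4 and ZT12 (ZT counts hours from lights on). Each of the 16 groups held 4 mice. All mice of a cell type carried the same tag, whose driver, like the age of the mice, is not given in the sources used here.

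Levels below are the authors' normalized reads per peak of 200 bp, given per mouse or as mean ± SD (n = 4), and p-values measure the spread between mice. A peak is called opened or closed where fasted mice had more or fewer reads than fed mice taken at the same hour, at a Benjamini-Hochberg adjusted p under 0.05 in limma. Log2 fold changes (fasted over fed) are on the scale of log2(level + 2), which understates changes from low levels. Reads in listed peaks ran from 2458156 to 6098645 per mouse (median 4364781) in hepatocyte nuclei and from 1729720 to 4637873 (median 3531871) in macrophage nuclei. Of the markers listed for each cell type, 9 of 10 hepatocyte genes (Ttr was the exception) and 0 of 12 macrophage genes had a promoter peak in the hepatocyte table, against 0 of 10 and 12 of 12 in the macrophage table. Peaks within 1 kb of other cell types' marker genes included Sox9 and Reln in hepatocyte nuclei and Lyve1, S100a8, Itgam and Csf3r in macrophage nuclei, with levels of 10.3 to 79.6 for Reln and summed levels of 89.8 to 170 for the last 3. Their part in the results was not tested. The hepatocyte libraries least like the rest of their group were fasted 16 h replicates 3 and 4, with a mean correlation to the other 3 mice of 0.878 and 0.893 against a median of 0.938 over libraries.

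The promoter of Igfbp1 is shown because the peak over it rose in the fast and because it holds the element through which insulin is known to act. These are the 250 bases upstream of the RefSeq TSS (GRCm38.p6, the mm10 assembly, chr11:7197537-7197786, plus strand), with the core of the insulin response element, CAAAACAA, in capitals.

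Igfbp1 promoter: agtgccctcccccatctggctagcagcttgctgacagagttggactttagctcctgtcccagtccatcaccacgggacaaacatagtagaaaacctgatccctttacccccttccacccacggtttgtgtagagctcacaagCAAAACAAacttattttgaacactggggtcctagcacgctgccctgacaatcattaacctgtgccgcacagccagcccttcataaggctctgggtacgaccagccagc

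The element lay 108 to 101 bp before the TSS (chr11:7197679-7197686), inside the promoter peak (chr11:7197594-7197794). Of 32817 RefSeq promoter windows of this length, 2.22% held it on either strand. All 5 genes had a RefSeq window, and Igfbp2 had 2. Searched on both strands, no window of the 5 genes held the FOXO spelling GTAAACA (3.16% of all windows) or the STAT motif TTCNNNGAA (7.01%). They also lacked the cAMP response element TGACGTCA (1.55%), the C/EBP motif TTGCNNAA (9.57%) and the HNF4 motif CAAAGTCCA (0.384%). Nor did they hold a glucocorticoid receptor site (GNACA, any 3 bases, TGTNC, in 0.387% of windows) or a PPAR site (AGGTCA, any base, AGGTCA, in 0.0335%). The only match among the 6 windows was thus the one in Igfbp1. The insulin response element core was searched apart from GTAAACA, so the lack of GTAAACA does not show that the Igfbp1 promoter lacks a FOXO site. A match or its absence in these letters says nothing of a factor's binding.

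In hepatocyte nuclei, 3 of 4 peaks near Igfbp1 had opened by 3 h of fasting. The 1 of 8 opened near Igfbp2 at 3 h was close to the share of all tested peaks, 11.3%. At 24 h 8 of 9 near Igfbp4 were called opened (2 of 9 in edgeR), and the single peak near Pappa2 closed from 8 h on. After 3 h, 7 of 22 peaks had opened (11.3% of all 46827 tested peaks) and 0 had closed (10.3% of all). The 7 lay near Igfbp1 (3), Igfbp2 (1) and Igfbp4 (3). After 8 h, 7 had opened (20.3% of all) and 2 had closed (13.7% of all), the latter near Igfbp2 and Pappa2. After 16 h, 3 had opened (19.0% of all) and 1 had closed (12.8% of all), and after 24 h, 13 had opened (25.3% of all) and 1 had closed (11.4% of all). The share opened at 16 h was thus below that of all peaks. Levels of fed and fasted mice did not overlap at 6, 9, 4 and 12 of the 22 peaks at 3, 8, 16 and 24 h, beside 25.8%, 30.9%, 22.4% and 36.5% of all listed peaks.

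The median log2 fold change of the 22 peaks was 0.25, 0.29, 0.10 and 0.39 at 3, 8, 16 and 24 h, beside -0.01, 0.08, 0.10 and 0.16 over all tested peaks. Other scalings here are median centring, quantile normalization, edgeR and DESeq2. The last 2 are also other tests and left out 1 fed mouse at 8 h and 1 at 24 h. In them the median of all peaks at 24 h was 0.04 (edgeR) or 0.03 (DESeq2). The share of opened among all called peaks was 38.0% or 32.3% in these 2 tests, in place of 69.1%. Under them 4 of the 22 peaks opened at 24 h and 1 closed, beside 3377 opened and 5501 closed of all 46827 in edgeR. In DESeq2 2698 of all opened and 5649 closed. At 16 h the split of 3 opened and 1 closed became 2 and 2 under every other scaling, with a peak 15032 bp upstream of Igfbp2 closed in place of the Igfbp4 call.

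**Figure D1:**
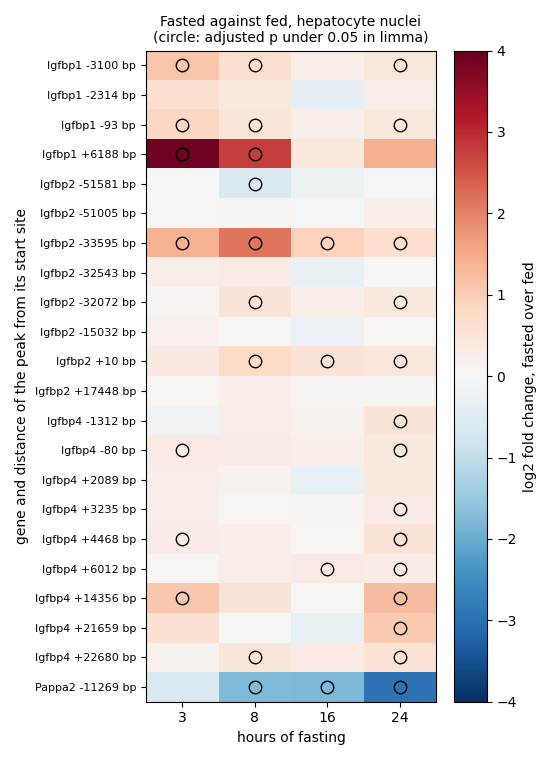
Log2 fold change of fasted over fed mice (colour scale) for each of the 22 peaks (rows, named by gene and signed distance in bp from the TSS) at each time (columns, hours), in hepatocyte nuclei. Circles mark an adjusted p under 0.05 in limma. The Igfbp1 peak at +6188 bp has the highest value, 3.90 at 3 h, and the Pappa2 peak the lowest, -2.94 at 24 h.

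Igfbp1 showed its largest response after 3 h of fasting, at a peak between Igfbp1 and Igfbp3. That peak (chr11:7203875-7204075), 6188 bp downstream of the TSS and annotated as intergenic, lay 1329 bp past the end of Igfbp1 and 2011 bp from the nearer end of Igfbp3, which is read in the opposite direction. In fed mice at 3 h it held 1.93, 1.48, 2.06 and 0 normalized reads, and in fasted mice 94.6, 28.0, 60.0 and 28.4. The groups were far apart, with 8 reads in all 4 fed libraries together and 263 in the fasted ones. The means were 1.36 ± 0.943 and 52.7 ± 31.6, and the log2 fold change was 3.90 ± 0.580 (SE, the same at each time, adjusted p = 7.49e-06 in limma).

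At 8 h the same peak held 0.918, 3.71, 2.79 and 7.74 in fed mice and 12.8, 60.7, 10.3 and 147.6 in fasted animals (log2 fold change 2.78, adjusted p = 0.000285). All fasted mice were above all fed mice, but fasted replicates 2 and 4 were far above the other pair. At 16 h the groups overlapped (12.2 ± 4.93 fed, 21.0 ± 17.7 fasted). At 24 h fed mice held 7.95, 23.9, 2.72 and 16.6 and fasted mice 64.0, 15.2, 30.5 and 30.3, an overlap of 1 fasted with 2 fed mice (log2 fold change 1.43, adjusted p = 0.0502), which passed under quantile normalization. The mean in fed mice was lowest at 3 h and highest at 24 h (12.8 ± 9.35), and time changed the peak in fed mice (adjusted p = 0.0176, moderated F test in limma).

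The promoter peak of Igfbp1 was open in all mice and changed less. In fed mice at 3 h it held 84.1, 93.7, 93.9 and 89.9, and in fasted mice 184, 146, 168 and 150.0. These groups did not overlap, and the log2 fold change was 0.82 ± 0.115 (SE, adjusted p = 3.06e-06 in limma). At 8 h it was 0.47 (adjusted p = 0.00162), the mean being 114 ± 10.4 when fed and 163 ± 44.0 when fasted. At 16 h the levels overlapped, at 155 ± 11.0 when fed and 184 ± 21.0 when fasted (adjusted p = 0.103). At 24 h the groups were apart again, at 129 ± 14.2 and 175 ± 3.82 (change of 0.44, adjusted p = 0.00344), a call lost under quantile normalization (0.195).

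The fed mean of the promoter peak ran from 90.4 to 155 over the day and the fasted mean from 162 to 184. Time changed the level in fed mice (adjusted p = 6.30e-05, moderated F test). Whether time changed it in fasted mice was not tested.

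A distal peak 3100 bp upstream of Igfbp1 (chr11:7194587-7194787, intergenic) behaved much as the promoter did and had the smallest p of the 4. At 3 h it held 101, 70.1, 76.8 and 97.2 in fed and 201, 161, 215 and 170 in fasted mice. All fasted values exceeded all fed values, with a log2 fold change of 1.10 ± 0.132 (SE, adjusted p = 2.17e-07 in limma). The change was 0.64 at 8 h (adjusted p = 0.000246), 0.23 at 16 h (adjusted p = 0.189) and 0.44 at 24 h (adjusted p = 0.00982). The call at 24 h was lost without fed 24 h replicate 3 (0.29, adjusted p = 0.0777 in limma) in edgeR (0.34, adjusted p = 0.0699), in DESeq2 (0.0805) and under quantile normalization (0.302). Fed means ran from 86.4 at 3 h to 152 at 16 h, and fasted means only from 180 to 188.

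The fourth Igfbp1 peak, 2314 bp upstream, passed at no time, with log2 fold changes from -0.34 at 16 h to 0.63 at 3 h. At 3 h its adjusted p was 0.0570 in limma, and it opened in edgeR, DESeq2 and under quantile normalization. For the other 3 Igfbp1 peaks the fasting effect differed between times in a moderated F test (adjusted p = 0.00468 at -3100 bp, 0.0440 at the promoter and 0.00940 at +6188 bp). Over all tested peaks 24.1% passed that test, and 7 of the 22 did.

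**Figure D2:**
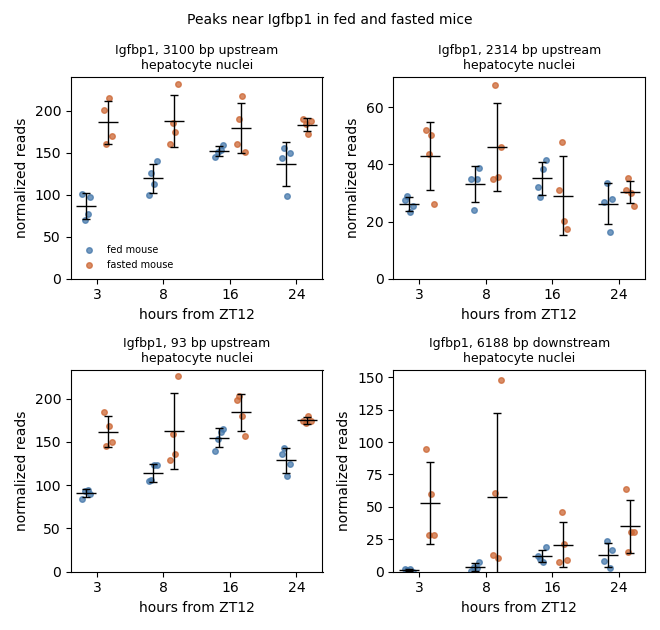
Normalized reads (y axis) by hours from ZT12 (x axis) at the 4 Igfbp1 peaks in hepatocyte nuclei, blue for fed and orange for fasted mice. Each point is a mouse, and black marks give the mean ± SD of 4 mice. At the +6188 bp peak the fed mice at 3 h lie at or below 2.06, and the fasted mice at 28.0 or above.

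Igfbp2, whose protein is a major IGF binding protein of fetal life and is also made by adult liver, had 8 peaks, and 1 distal peak opened at all 4 times. It lay 33595 bp upstream of the TSS (chr1:72790785-72790985, intergenic). At 8 h it held 21.1, 22.3, 40.4 and 32.7 in fed mice and 125, 143, 112 and 144 in fasted mice, with no overlap. The log2 fold change was 2.13 ± 0.200 (SE, adjusted p = 4.76e-10 in limma), a mean of 29.1 ± 9.15 against 131 ± 15.3.

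At the other times the same peak rose by less. At 3 h the fed mean was 35.1 ± 7.22 and the fasted mean 94.1 ± 18.7 (log2 fold change 1.38, adjusted p = 5.15e-06). At 16 h they were 47.5 ± 9.73 and 94.5 ± 29.9 (0.92, adjusted p = 0.000554), and fasted replicate 4, at 52.4, fell among the fed mice. At 24 h they were 58.1 ± 7.58 and 94.4 ± 14.2 (0.68, adjusted p = 0.00872), with the groups apart. The fasting effect differed between times (adjusted p = 0.00137), and fed levels changed with time (adjusted p = 0.00156, both moderated F tests), rising from 29.1 at 8 h to 58.1 at 24 h. The 4 calls held under all other settings tried, and without any single mouse.

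The Igfbp2 promoter peak (10 bp downstream of the TSS, chr1:72824390-72824590) passed at 3 of 4 times. At 8 h it held 36.7, 44.6, 36.9 and 34.5 in fed and 62.6, 81.9, 53.4 and 66.2 in fasted mice, groups that did not overlap (log2 fold change 0.75 ± 0.155 SE, adjusted p = 0.000245 in limma). At 3 h the change was 0.35 (adjusted p = 0.0988), at 16 h 0.52 (adjusted p = 0.00995, groups overlapping) and at 24 h 0.45 (adjusted p = 0.0217). A peak 32072 bp upstream opened at 8 h (0.52, adjusted p = 0.00236) and 24 h (0.40, adjusted p = 0.0182). Both calls at 24 h were lost in edgeR, where the adjusted p was 0.142 at the promoter and 0.127 at the upstream peak, and under every other scaling.

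Single mice also decided some of these calls. The promoter call at 24 h was lost without fed replicate 2 or 4 or fasted replicate 3 or 4, with an adjusted p of at most 0.0724, and that at 16 h without fed replicate 2 (0.0714, limma). The upstream call at 24 h was lost without fed replicate 2 or fasted replicate 3 or 4 (at most 0.0536).

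The other 5 Igfbp2 peaks did not open at any time as deposited. A peak 51581 bp upstream closed at 8 h alone, where fed mice averaged 95.2 ± 7.43 and fasted ones 62.9 ± 6.26 (-0.59 on the log2 scale, adjusted p = 0.000519), and its fasting effect differed between times (adjusted p = 0.0473, moderated F test). Peaks at -51005, -32543, -15032 and +17448 bp passed at no time as deposited, with log2 fold changes between -0.30 and 0.32. The peak at -15032 bp (-0.23 at 16 h, adjusted p = 0.0961 in limma) closed at 16 h under every other scaling. At -15032 bp time changed the level in fed mice (adjusted p = 0.000437), from 107 ± 10.3 at 3 h to 166 ± 9.72 at 16 h.

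No peak within 100 kb was named for Igfbp3 in either cell type. The gene encodes the main carrier of IGF in blood and lies next to Igfbp1. Accessible sites did lie near it: the peak named Igfbp1 +6188 bp was 2011 bp from its nearer end. In liver the Igfbp3 transcript is known chiefly from cells other than hepatocytes, and whether this bears on the naming was not tested.

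Igfbp4, which encodes a binding protein that restrains IGF action until it is cleaved, had 9 hepatocyte peaks, of which 8 opened at 24 h. Their median log2 fold change at 24 h was 0.50, or 0.34 above the median of all peaks. The count differed between settings: 5 of 9 opened under median centring and under quantile normalization. In edgeR and in DESeq2 2 of 9 did, those at +4468 and +21659 bp. These 2 tests also left out 1 fed 24 h mouse, so that scaling, test and mouse cannot be told apart. The median stayed 0.31 above that of all peaks in both count tests. Of all 46827 tested peaks, the number opened at 24 h also fell, from 11867 to 7595 under median centring and 5218 under quantile normalization. It was 3377 in edgeR and 2698 in DESeq2. Outside 24 h, 3 of the 9 opened at 3 h (11.3% of all tested peaks), 1 at 8 h (20.3%) and 1 at 16 h (19.0%). The shares at 8 and 16 h were thus below those of all peaks. The 3 counts became 1, 0 and 0 under median centring and 4, 1 and 0 under quantile normalization. They were 2, 0 and 0 in edgeR and 3, 0 and 0 in DESeq2. Over all tested peaks 5292, 9512 and 8916 opened at these times, and 5087, 6905 and 6598 under median centring. Under quantile normalization 6361, 7411 and 5406 opened, in edgeR 5696, 6118 and 5917, and in DESeq2 5344, 5856 and 5562.

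The Igfbp4 peak with the smallest p lay in intron 1 of 3, 4468 bp downstream of the TSS (chr11:99045612-99045812). At 24 h it held 126, 108, 137 and 121 in fed mice and 182, 173, 178 and 189 in fasted mice. The groups did not overlap, and the log2 fold change was 0.55 ± 0.104 (SE, adjusted p = 0.000166 in limma). At 3 h it was 0.29 (adjusted p = 0.0388), a call lost without fed replicate 1 or 3 or fasted replicate 1 or 3 (adjusted p up to 0.162). At 8 h it was 0.20 and at 16 h 0.07, neither passing.

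At 24 h a weaker peak 21659 bp downstream (chr11:99062803-99063003, intergenic), chosen after its values were seen, held 18.4, 19.1, 17.7 and 16.6 in fed mice. In fasted mice it held 46.1, 35.1, 40.9 and 36.0, all above the fed mice (log2 fold change 1.05, adjusted p = 0.00428 in limma). At 3, 8 and 16 h the groups overlapped, and the fasting effect differed between times (adjusted p = 0.0346, moderated F test).

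The peak 14356 bp downstream (chr11:99055500-99055700), the faintest of the 22 with a mean of 14.3 over 32 mice, stood at 13.2 ± 7.12 when fed and 30.9 ± 5.58 when fasted at 24 h. Its log2 fold change was 1.25 (adjusted p = 0.0135 in limma), and the call was lost in edgeR (0.107), in DESeq2 (0.128) and without fed 24 h replicate 2 (0.0860, limma). Its call at 3 h (1.07, adjusted p = 0.0464 in limma) was lost with a block on library numbers (0.0509), with the reads in peaks as a covariate (0.0540), under median centring (0.0507) and in edgeR (0.0528). It was also lost without any 1 of fed replicates 1, 3 and 4 and fasted replicates 1, 3 and 4.

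The Igfbp4 promoter peak (80 bp upstream, chr11:99041064-99041264) held 64.8, 90.0, 67.2 and 76.9 in fed and 97.0, 98.0, 99.3 and 84.5 in fasted mice at 3 h, with 1 fasted mouse among the fed ones (log2 fold change 0.34, adjusted p = 0.0479 in limma). It was lost without any 1 of fed replicates 1, 3 and 4 and fasted replicates 1, 2 and 3 (adjusted p up to 0.159), under median centring (0.0570) and with the reads in peaks as a covariate (0.0612). At 24 h the change was 0.38 (adjusted p = 0.0193), lost without fed replicate 2 (0.0778) or fasted replicate 4 (0.0591) and under every other scaling. In fed mice the level changed with time (adjusted p = 0.000509, moderated F test), from 74.7 ± 11.4 at 3 h to 119 ± 9.16 at 16 h.

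Of the remaining Igfbp4 peaks, those at -1312 and +3235 bp opened at 24 h only, +6012 bp at 16 and 24 h and +22680 bp at 8 and 24 h, with log2 fold changes at 24 h between 0.30 and 0.59. The call at +6012 bp was lost at both times under every other scaling, and that at +22680 bp at 8 h under median centring, in edgeR and in DESeq2 and at 24 h in edgeR and DESeq2. The peak at +2089 bp, in intron 1, passed at no time (0.39 and adjusted p = 0.0660 at 24 h).

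In macrophage nuclei the peaks at -1312 and +2089 bp were listed at the same positions as in hepatocyte nuclei, and neither changed detectably. At the upstream peak the groups ranged from 29.2 ± 0.842 to 37.1 ± 7.80, and at the intron peak from 55.9 ± 3.00 to 75.9 ± 3.11. In limma 0 of 2 passed at 3, 8, 16 or 24 h, where 1.82%, 6.60%, 21.3% and 11.3% of all 30170 tested peaks were opened or closed, and 0 of 2 had an unadjusted p under 0.05. The log2 fold changes lay between -0.15 and 0.17. For the difference of the fasting effect between times 0 of 2 passed (3.49% of all), as for time in fed mice (1.63% of all), where 1 had an unadjusted p under 0.05. The tables were normalized separately, so the cell types were not tested against each other.

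**Figure D3:**
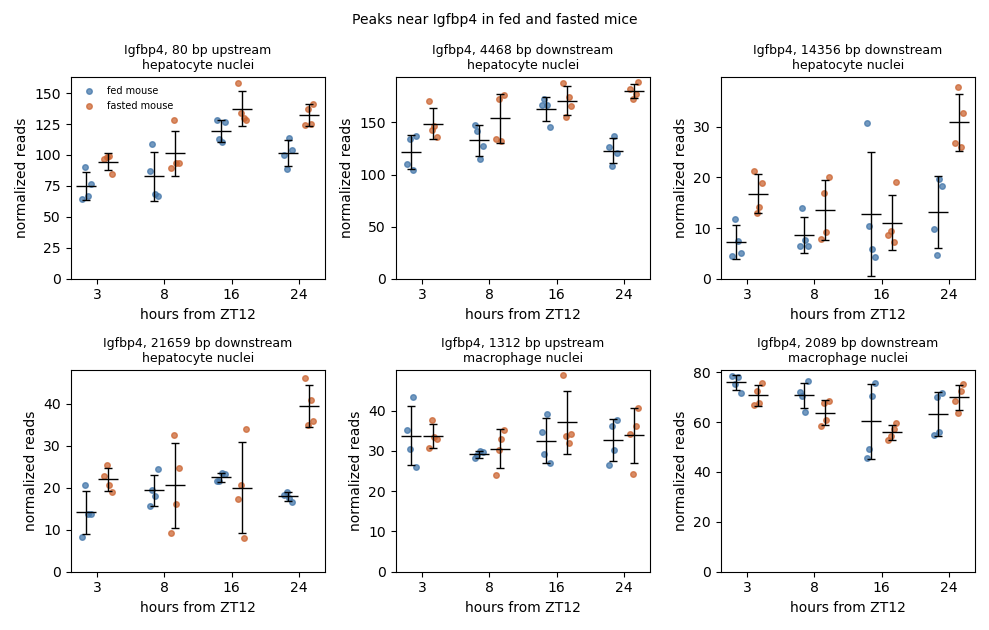
Normalized reads (y axis) by hours from ZT12 (x axis) at 4 Igfbp4 peaks in hepatocyte nuclei and both Igfbp4 peaks in macrophage nuclei, blue for fed and orange for fasted mice. Points are mice, and black marks give the mean ± SD of 4 mice. At 24 h the fasted mice lie above the fed mice in each hepatocyte panel, and the groups overlap in both macrophage panels.

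Pappa2, whose protease cleaves IGFBP3 and IGFBP5, had a single peak 11269 bp upstream of its TSS (chr1:158968607-158968807, intergenic), and it closed at 8, 16 and 24 h. At 24 h it held 44.0, 24.7, 29.9 and 30.6 in fed mice and 2.75, 0.948, 3.89 and 2.46 in fasted mice. The fasted mice were near 0 and far from the fed ones, with means of 2.51 ± 1.21 and 32.3 ± 8.26, a 12.9-fold ratio of means (log2 fold change -2.94 ± 0.372 SE, adjusted p = 4.97e-07 in limma). At 8 h fed mice held 26.6, 25.1, 45.3 and 16.1 and fasted mice 9.96, 4.24, 10.3 and 3.45 (-1.76, adjusted p = 0.000328).

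At 16 h the Pappa2 peak held 30.1, 32.1, 56.0 and 43.6 in fed and 19.0, 7.27, 16.8 and 3.49 in fasted mice, again apart (-1.79, adjusted p = 0.000334 in limma). At 3 h the groups overlapped, at 13.3 ± 2.98 when fed and 8.71 ± 5.05 when fasted (-0.62, adjusted p = 0.250). The level in fed mice changed with time (adjusted p = 0.0196, moderated F test), from 13.3 at 3 h to 40.4 ± 12.0 at 16 h, so that the fed level at 3 h was the lowest of the fed levels. The fasting effect differed between times (adjusted p = 0.0114, moderated F test). The 3 calls held under the other settings that kept the peak and without any single mouse.

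**Figure D4:**
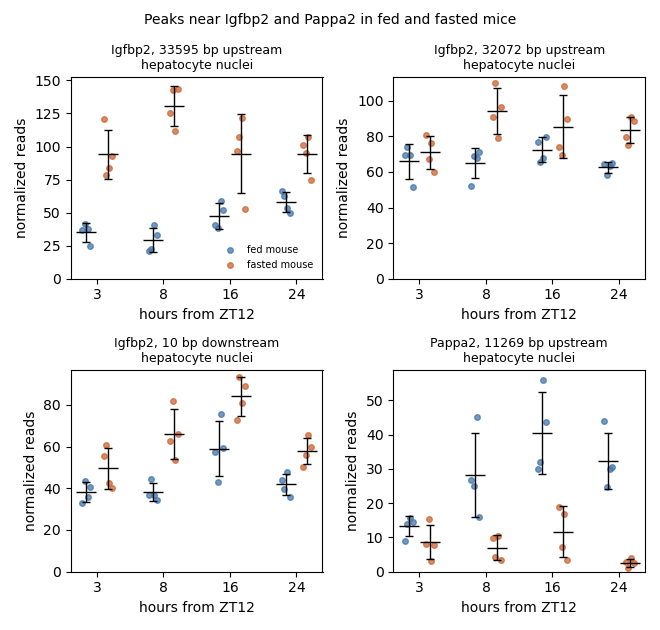
Normalized reads (y axis) by hours from ZT12 (x axis) at 3 Igfbp2 peaks and the Pappa2 peak in hepatocyte nuclei, blue for fed and orange for fasted mice. Points are mice, and black marks give the mean ± SD of 4 mice. At 24 h the fasted mice lie at or below 3.89 at the Pappa2 peak, and the fed mice at 24.7 or above.

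In fed mice alone, 10 of the 22 hepatocyte peaks changed with time (21.1% of all tested peaks). They were 3 of Igfbp1, 4 of Igfbp2, 2 of Igfbp4 and the Pappa2 peak. The fast began at the same hour for all mice, so that its length and the time of day move together, and fed mice of the same hour are the only control for this.

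Among the 22 peaks, all of the same width, the highest mean levels over the 32 mice were at Igfbp1 -3100 bp (154), Igfbp4 +4468 bp (149) and the Igfbp1 promoter (146). The order is one of normalized reads, and other influences on reads at a peak, such as its sequence, were not corrected for here. The Igfbp2 promoter stood at 54.3 and the Igfbp4 promoter at 106. The faintest were Igfbp4 at +14356 bp, the Pappa2 peak (18.0) and Igfbp4 at +21659 bp (22.0). At 24 h in fasted mice the Igfbp1 peaks at -3100 bp (184 ± 7.81) and at the promoter (175 ± 3.82) and the Igfbp4 peak at +4468 bp (180 ± 6.99) had overlapping values, and differences between peaks were not tested.

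The pathway's other genes had 94 hepatocyte peaks within 100 kb, near 14 of 19 listed genes. At 3, 8, 16 and 24 h, 10, 7, 11 and 11 of these opened and 15, 23, 19 and 11 closed, with median log2 fold changes of -0.11, -0.11, -0.05 and 0.08. Over all tested peaks 11.3%, 20.3%, 19.0% and 25.3% opened and 10.3%, 13.7%, 12.8% and 11.4% closed, so that the counts opened at 3 h and closed at 24 h were near the shares of all peaks. At 24 h the even split held in no other scaling: it was 6 opened and 14 closed under median centring, 5 and 11 under quantile normalization, 1 and 13 in edgeR and 0 and 13 in DESeq2, where the medians were -0.03 and -0.04. Over all tested peaks the opened counts at 24 h fell in the same order from 11867 to 7595, 5218, 3377 and 2698. The closed counts went from 5315 to 6157, 5772, 5501 and 5649. At Cish, a STAT5-induced inhibitor of cytokine signalling, 4, 8, 9 and 2 of 11 closed and 0 opened. At Igfbp5, the neighbour of Igfbp2, 2, 4, 4 and 3 of 7 closed and 0 opened. Its peak at +2212 bp closed at all times, by most at 8 h, with a fed mean of 59.1 ± 3.22 and a fasted mean of 18.5 ± 3.48 (-1.59 on the log2 scale, adjusted p = 2.93e-08 in limma).

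Igfals, the subunit that holds IGF in its large blood complex, had 3 and 2 of 4 peaks closed at 3 and 8 h and 0 at 16 and 24 h. Near Irs2, the insulin receptor substrate that FOXO1 is known to induce, 5, 1, 4 and 2 of 11 peaks opened and 0 closed, so that at 8 and 24 h the opened share was below that of all peaks. Near Igf1 itself 1, 1, 2 and 0 of 17 peaks opened, beside 11.3%, 20.3%, 19.0% and 25.3% of all tested peaks. Closed were 2, 2, 1 and 0, beside 10.3%, 13.7%, 12.8% and 11.4% of all. The opened share was thus below that of all peaks at each time, and the closed share near or below it. At Htra1, a serine protease that cleaves IGF binding proteins, 2 of 4 peaks closed at each time and 1 opened at 24 h. The one that opened, at +41745 bp (log2 fold change 0.57, adjusted p = 0.0263 in limma), had been closed at 3 h. The peak at +439 bp closed at all times, and fell most at 16 h, from 37.3 ± 11.8 to 6.11 ± 2.50 (log2 fold change -2.29, adjusted p = 8.59e-08 in limma).

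In macrophage nuclei the same list had 24 peaks near 8 genes, and 0 passed at 3 and 8 h, where 1.82% and 6.60% of all tested peaks did. At these times 4 and 8 had an unadjusted p under 0.05 in limma, counts given without a share of all peaks. At 16 h 2 opened (3.79% of all tested peaks) and 6 closed (17.5%), and at 24 h 1 opened (3.00%) and 3 closed (8.28%), most of them near Insr and Igf1. That balance depended on the scaling, with 6 opened and 4 closed at 16 h under median centring and 4 and 3 under quantile normalization. At 24 h these gave 2 and 2, and 2 and 3, and at 8 h each gave 1 opened and 0 closed. Over all 30170 tested peaks median centring gave 3779 opened and 2625 closed at 16 h, and quantile normalization 1876 and 2159. At 24 h these counts were 2269 and 1600, and 1260 and 1509. At 8 h they were 1155 and 583, and 900 and 635.

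Peaks of other genes with the most similar profile were sought by Pearson's r of log2(level + 2) over the 32 hepatocyte mice. Both peaks of a pair share the depth and group of each mouse, so that r is a description only. Closest to the Igfbp1 peak at -3100 bp were peaks of Klf9 (r = 0.889), Eif4ebp1 (0.874) and Abhd2 (0.854). Closest to the Igfbp2 peak at -33595 bp were peaks of Lepr (0.941), Zfp217 (0.935) and Redrum (0.927). For Igfbp4 at +4468 bp they were Serpina3m (0.880), Per1 (0.877) and Actb (0.852), and for Pappa2 they were Odc1 (0.906), Btbd3 (0.879) and Fam26f (0.874). Each is named for its nearest TSS, without the limit of 100 kb. The Redrum peak lay at -172060 bp and the Btbd3 peak at -207974 bp.

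In the authors' deposited table, 6, 9, 3 and 13 of the 22 hepatocyte peaks had an adjusted p under 0.05 at 3, 8, 16 and 24 h. Of these, 5, 9, 3 and 13 were also called in limma. The share of all peaks passing in the authors' own test was not computed, so their counts stand without a background. In limma 21.6%, 34.0%, 31.8% and 36.7% of all tested peaks were called in either direction. The authors' deposited table gave 0 of 2 calls in macrophage nuclei at each time.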

How the data were processed

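ATAC-seq was done on bead-captured hepatocyte or macrophage nuclei of 64 female mice in 16 groups of 4. For either cell type the authors deposited a table of signal (normalized reads) for each peak and mouse, which also lists their own log2 fold changes and adjusted p-values. Per the submitters' processing notes, BWA 0.7.5a-r405, SAMtools, HOMER and DESeq2 were used with mm10, with no role or setting stated. Macrophage libraries were run as technical duplicates, per the labels, and the authors' table holds 1 column per mouse. How the runs were joined is not stated.

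limma 3.58.1 (R 4.3.3) was fitted to log2(value + 2) with 8 group means per cell type and an intensity trend for the prior. Peaks averaging under 10 were left out (5 hepatocyte peaks and 0 macrophage peaks). Adjustment was by Benjamini-Hochberg over all tested peaks. All tests are two-sided. The 22 and 2 members all passed the filter. The labels do not say that same-numbered mice are related. Values were whole multiples of 1 step per library within 0.01 of a read. The check of whole reads accepted 30 of 32 hepatocyte columns and 5 of 32 macrophage columns. edgeR 4.0.16 (TMM) and DESeq2 1.42.0 were therefore run as alternatives on those 30 hepatocyte libraries only, which leaves out 1 fed mouse at 8 h and 1 at 24 h, and not on the macrophage table.

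Described in full for each gene and cell type were the peak nearest the TSS, that of smallest p, and those called at 2 or more times with the groups apart. Members and gene lists were chosen with earlier results of these data known. Fits were tested on simulated data. Promoter windows are from RefSeq (GRCm38.p6). Sequences of distal peaks were not used here. One marker gene is not reported here.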

Additional observations from a re-analysis of the deposited data

Results flagged for a closer look

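For 7 hepatocyte peaks the effect of fasting differed between 3, 8, 16 and 24 h in a moderated F test in limma, adjusted over all tested peaks. The adjusted p was 0.00137 for Igfbp2 at -33595 bp, 0.00468 for Igfbp1 at -3100 bp and 0.00940 for Igfbp1 at +6188 bp. It was 0.0114 for Pappa2, 0.0346 for Igfbp4 at +21659 bp, 0.0440 for the Igfbp1 promoter and 0.0473 for Igfbp2 at -51581 bp.

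In 4 of the 96 groups of 4 mice at the peaks described in full, 1 mouse lay far from the other 3, and chance alone gives about 1 in 20. At the Igfbp4 promoter peak in hepatocyte nuclei these were a fasted 3 h mouse at 84.5, below the others, and a fasted 8 h mouse at 128.5, above them. At Igfbp4 +14356 bp a fed 8 h mouse stood out at 13.9. At Igfbp4 -1312 bp in macrophage nuclei a fasted 16 h mouse stood out at 48.7.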

How the results depend on the processing

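At 24 h the number of hepatocyte peaks called fell from 14 to 9 under median centring, 8 under quantile normalization and 5 each in edgeR and DESeq2, the last pair on 30 libraries. Calls over all 46827 tested peaks fell too, from 11867 opened and 5315 closed to 7595 and 6157 under median centring. They were 5218 and 5772 under quantile normalization, 3377 and 5501 in edgeR and 2698 and 5649 in DESeq2. Without the 16 h mice, a setting chosen after seeing the data, the fasting effect differed between times at 4 peaks in place of 7. Time changed 6 in fed mice in place of 10, with 1 time fewer compared. Over all tested peaks the effect differed at 11303 in place of 11274, and time changed 6299 in fed mice in place of 9893. Leaving out 1 mouse at a time gave 4 to 7 calls at 3 h, 8 to 11 at 8 h, 3 to 5 at 16 h and 9 to 15 at 24 h, 4 to 8 for the effect by time and 8 to 10 for time in fed mice. Counts of 4 at 3 h came without fed replicate 1 or 3 or fasted replicate 1 or 3, counts of 9 at 24 h without fed replicate 2 or fasted replicate 4, and counts of 4 for the effect by time without fed 24 h replicate 4 or fasted 24 h replicate 1. In macrophage nuclei the counts were 0 in all settings run. No described call reversed its direction. A minimum mean of 20 removed Pappa2 and Igfbp4 +14356 bp. The count tests were not run on the macrophage table. No paired analysis was possible because replicate numbers follow accession order. How depth limits detection at faint peaks was not tested.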

Other observations

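The hepatocyte table named Igfbp3 as the nearest gene for 3 peaks over 100 kb from its TSS, at -601993, -545370 and -545143 bp. The farthest opened at 3 h, where fed mice averaged 17.5 ± 5.38 and fasted mice 65.8 ± 18.1 (1.80 on the log2 scale, adjusted p = 8.80e-05 in limma), and at 8 h (1.55, adjusted p = 0.000237). At 16 and 24 h it did not pass. The peak at -545143 bp opened at 3 h (0.62, adjusted p = 0.00795) and 8 h (0.65, adjusted p = 0.00342), and that at -545370 bp at 8 h (0.60, adjusted p = 0.0440).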
